A study of Mus musculus with 9 samples.

Results

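The genes described here are 7 mouse genes of antigen presentation by major histocompatibility complex (MHC) class II molecules, followed in T helper 1 (Th1) cells without and with the transcription factor T-bet, which the gene Tbx21 encodes. They are H2-Aa, H2-Ab1, H2-Eb1, H2-DMa, H2-DMb1, H2-Oa and Cd74, out of 430 genes that the authors listed as changed in expression. They were chosen by their FPKM values and log2 ratios, with these known, so their presence on the list of genes higher in Tbx21-/- cells is a description and not a test. The members were followed by symbol through the authors' 2 expression lists and through 3 lists of chromatin regions, where a region belongs to a gene when the authors named that gene as the closest.

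The Tbx21-/- Th1 cells and the wild type Th1 cells were of strain C57BL/6, and both carried the T-bet-ZsGreen reporter, a fluorescent marker of T-bet expression. Naive CD4+ T cells negative for the reporter were stimulated through CD3 and CD28 with interleukin-2, interleukin-12 and an antibody against interleukin-4, together with irradiated splenocytes depleted of T cells. Reporter-positive cells were then sorted and expanded, per the labels' protocols. RNA-seq was made from 2 Tbx21-/- and 2 wild type libraries, H3K4me1 and H3K27me3 ChIP-seq from 1 Tbx21-/- and 1 wild type library each, and T-bet ChIP-seq from 1 wild type library. Whether the duplicates were made from different mice, or from pooled ones, was not given in the sources used here.

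Each expression list holds a single FPKM value for each genotype (read fragments normalised for transcript length and for the size of the library). The authors had combined the duplicates, so the spread between libraries is not known and no error, interval or p-value can be given. The depth of the libraries is unknown. Every gene on either list differed at least 2-fold by the authors' log2 ratio. A gene on neither list may have changed by less, so it cannot be read as unchanged. Tbx21 itself had 124 FPKM in Tbx21-/- cells and 271 FPKM in wild type cells, so transcript remained in the libraries labelled as knockout. All 10 T cell markers examined, among them Cd4, Cd3e and Lck, were on neither expression list and therefore have no FPKM value here. Over all protein-coding genes 1.89% were on one of the lists, so nothing is read from that count. In cell populations measured in bulk, a smaller number of cells of a type and less RNA per cell cannot be told apart.

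MHC class II molecules are pairs of an alpha and a beta chain that show peptides from engulfed proteins to CD4+ T cells. New pairs bind the invariant chain, encoded by Cd74, which fills the peptide groove and guides the pair to endosomes. There proteases trim the invariant chain, the H2-DM dimer exchanges its last fragment for a peptide, and the H2-O dimer restrains H2-DM. Class II genes are made mainly by B cells, dendritic cells and macrophages, and mouse T cells are generally thought to make little of their own. Their promoters share an X box, bound by the RFX complex, and a Y box, bound by NF-Y, on which the coactivator CIITA assembles. C57BL/6 mice lack a working H2-Ea gene, so the partner of the H2-Eb1 chain is missing.

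The promoters of class II genes are shown so that the members can be compared for these boxes, among themselves and with class II genes that were not listed. The sequences are from RefSeq (build GRCm38.p6), which gave promoters for 5 members, H2-Aa, H2-Eb1, H2-DMa, H2-DMb1 and H2-Oa, and for 3 class II genes that were on neither expression list, H2-DMb2, H2-Ob and H2-Eb2. H2-Ab1 and Cd74 are named only. Each stretch of 90 bases runs along the gene's own strand and is set so that the Y boxes line up. Capitals mark an exact match of the X box (AGNAACN followed directly by GATG) or the Y box (GATTGG), searched on both strands.
H2-Aa: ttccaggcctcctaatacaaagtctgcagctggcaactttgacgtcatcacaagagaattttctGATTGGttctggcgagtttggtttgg
H2-Eb1: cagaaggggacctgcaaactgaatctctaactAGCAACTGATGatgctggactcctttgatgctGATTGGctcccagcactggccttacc
H2-DMb1: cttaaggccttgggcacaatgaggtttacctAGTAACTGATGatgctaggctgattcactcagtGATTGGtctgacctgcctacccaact
H2-Oa: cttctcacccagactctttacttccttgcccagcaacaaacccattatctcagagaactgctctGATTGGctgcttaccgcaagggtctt
H2-DMb2: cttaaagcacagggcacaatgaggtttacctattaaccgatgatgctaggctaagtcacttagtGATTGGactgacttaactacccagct
H2-Ob: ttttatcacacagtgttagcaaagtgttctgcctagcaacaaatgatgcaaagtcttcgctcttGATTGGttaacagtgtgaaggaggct
H2-Eb2: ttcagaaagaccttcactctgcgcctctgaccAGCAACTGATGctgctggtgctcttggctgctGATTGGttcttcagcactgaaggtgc

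In that build the stretch of H2-Aa lies at chr17:34287847-34287936 on the minus strand. The others lie on the plus strand, H2-Eb1 at chr17:34305743-34305832, H2-DMb1 at chr17:34153065-34153154 and H2-Oa at chr17:34092271-34092360. Those of the unlisted genes are H2-DMb2 at chr17:34145094-34145183, H2-Ob at chr17:34238783-34238872 and H2-Eb2 at chr17:34325510-34325599. This build differs from that of the region lists (mm9), so the positions of the promoters cannot be set against those of the regions.

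All 5 members with a promoter sequence had at least 1 Y box within 250 bases before to 50 after an annotated start. Counted by gene, the share was 18.2% of 26994 mouse genes with a promoter. Counted by promoter, it was 16.1% of 32817 mouse promoters of the same length. The Y box began 49 bases before the start of H2-Aa, 60 before that of H2-Eb1, 62 before that of H2-DMb1 and 44 before that of H2-Oa. H2-Eb1 had another Y box on the opposite strand, beginning 35 bases before the start. H2-DMa was the exception in position: it has 2 annotated starts, the first without a match and the second with a Y box 199 bases upstream. The X box, found in 0.299% of promoters, matched in H2-Eb1 and H2-DMb1, where 21 and 22 bases lay between the X box and the Y box. With 1 mismatch allowed, which 6.79% of promoters pass, H2-Oa also had a match to the X box letters. It lay 86 bases from the Y box and outside the stretch shown, so whether it serves as the X box is not known. No such match was found in H2-Aa or H2-DMa. This search can miss an X box that differs from the pattern at more than 1 base. The stretches of H2-Oa and H2-Aa hold agcaac and ggcaac close to where the X box of H2-Eb1 begins, counted from the Y box. Whether these serve as X boxes is not known.

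The same boxes were present at class II genes that were not listed as changed. H2-DMb2, H2-Ob and H2-Eb2 each had a Y box, H2-Eb2 had an exact X box, and H2-DMb2 and H2-Ob had one with 1 mismatch. Both boxes matched exactly in 18 of the 32817 promoters, or 0.0548%, and these include H2-Eb1, H2-DMb1 and H2-Eb2. The H2-DMb1 and H2-DMb2 stretches were identical at 76 of 90 bases and the H2-Eb1 and H2-Eb2 stretches at 52 of 90. Every other pair, those with H2-Aa included, matched at 21 to 36 bases. The bases of the Y box match in every pair because the stretches were aligned on it. A T-box core (GGTGTGA, or TCACACC on the other strand) was found in 0 of the 5 members. It was found in 3.98% of all promoters and, counted by gene, in 4.60% of all genes with a promoter. The absence of a match says only that these letters are not in these windows.

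**Figure D1:**
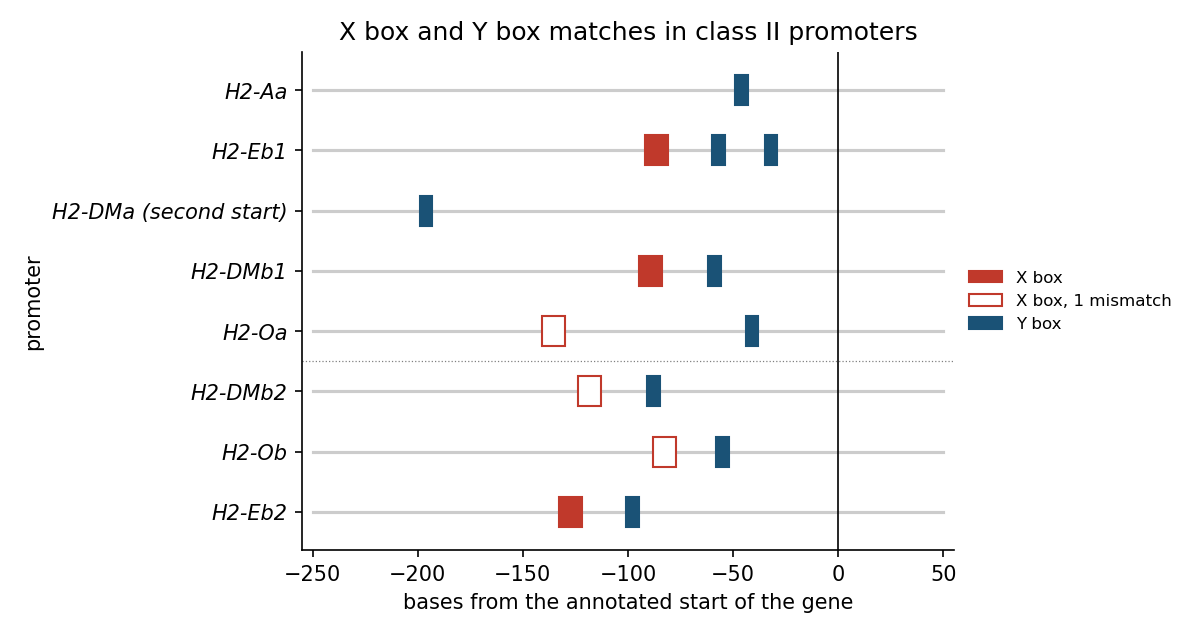
Positions of X box (red, open with 1 mismatch) and Y box (blue) matches on the horizontal axis, in bases from the annotated start, for 5 listed genes above the dotted line and 3 class II genes on neither list below it. H2-Aa, H2-Eb1, H2-DMb1 and H2-Oa have a Y box 44 to 62 bases before the start, and the Y box of H2-DMa lies 199 bases before its second start.

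All 7 genes were on the list of genes higher in Tbx21-/- Th1 cells, which holds 0.932% of 21900 protein-coding genes, and 0 were on the list of genes lower there, which holds 0.963%. Their choice fixes this direction, so nothing is read from it. The peptide-binding chains came with the widest range of change. H2-Ab1, the beta chain of the I-A molecule, had 64.6 FPKM in Tbx21-/- cells and 13.8 FPKM in wild type cells, and the authors' deposited table gave it a log2 ratio (Tbx21-/- to wild type) of 2.24. Its partner H2-Aa, the I-A alpha chain, had 11.8 FPKM in Tbx21-/- cells and 0.697 FPKM in wild type cells, and the authors' deposited table put its log2 ratio at 3.91. H2-Eb1, the beta chain of the I-E molecule, had 7.17 FPKM in Tbx21-/- cells and 0.616 FPKM in wild type cells, and its log2 ratio was 3.40 by the authors' deposited table. H2-Aa and H2-Eb1 were thus under 1 FPKM in wild type cells, and the size of their ratios rests on those low values.

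The invariant chain gene had the highest level of the 7 in both genotypes. Cd74 had 77.4 FPKM in Tbx21-/- cells and 17.3 FPKM in wild type cells, and its log2 ratio was 2.09 by the authors' deposited table. Its FPKM was 1.20 times that of H2-Ab1 in Tbx21-/- cells and 1.25 times in wild type cells, so the pair stood in nearly the same proportion in both genotypes. Cd74 and H2-Ab1 together made up 63.1% of the summed FPKM of the 7 genes in Tbx21-/- cells and 58.5% in wild type cells.

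The genes of peptide loading had smaller ratios. H2-DMa, the alpha chain of the peptide exchanger H2-DM, had 41.5 FPKM in Tbx21-/- cells and 12.9 FPKM in wild type cells (log2 ratio 1.68 by the authors' deposited table). H2-DMb1, a beta chain of H2-DM, had 5.45 FPKM in Tbx21-/- cells and 2.35 FPKM in wild type cells (log2 ratio 1.19 by the authors' deposited table), the smallest change of the 7. H2-Oa, the alpha chain of H2-O, had 17.0 FPKM in Tbx21-/- cells and 5.51 FPKM in wild type cells, and its log2 ratio was 1.61 by the authors' deposited table. H2-DMb1 has a close copy, H2-DMb2, and H2-DMa overlaps Brd2 in the RefSeq annotation. The treatment of reads shared by such genes was not given in the sources used here, so the values of H2-DMb1 and H2-DMa are uncertain.

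**Figure D2:**
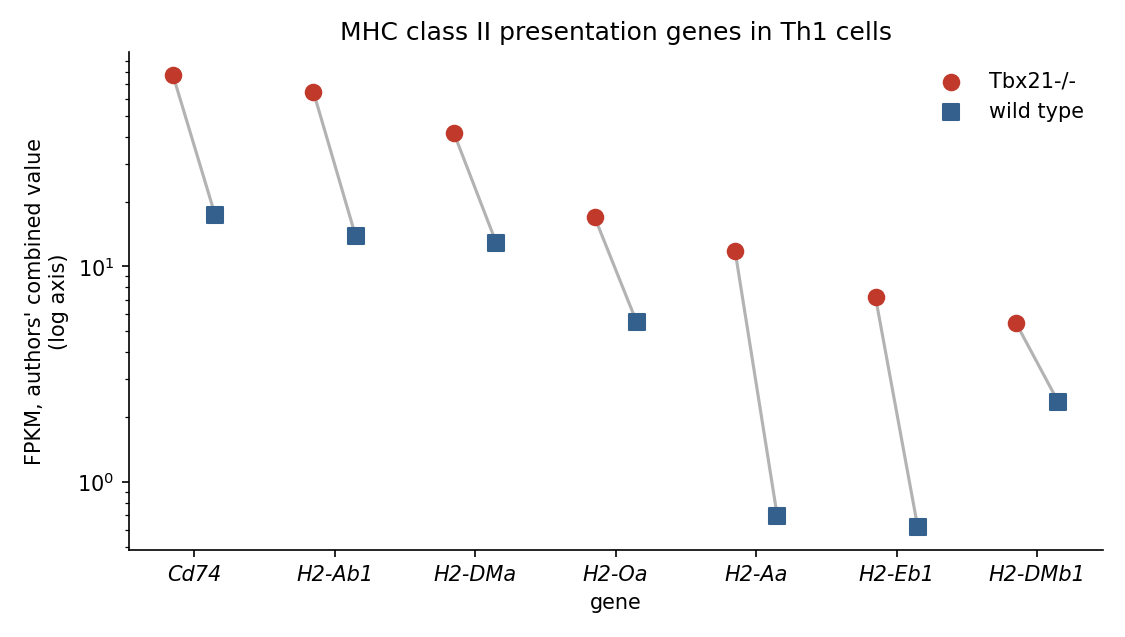
FPKM on a log axis for each of the 7 genes, with the authors' combined value of Tbx21-/- cells (red circle) left of that of wild type cells (blue square) and a line joining the pair. Every Tbx21-/- value lies above its wild type value, with the longest lines at H2-Aa and H2-Eb1, which are at 0.697 and 0.616 FPKM in wild type cells.

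The order of the levels was the same in both genotypes for the 4 highest genes, Cd74, H2-Ab1, H2-DMa and H2-Oa. Below them, H2-Aa, H2-Eb1 and H2-DMb1 followed in Tbx21-/- cells, while in wild type cells H2-DMb1 came before H2-Aa and H2-Eb1. Whether neighbours in this order differ beyond their spread is not known, since each has 1 value per genotype. Summed over the 7 genes, the level was 225 FPKM in Tbx21-/- cells and 53.2 FPKM in wild type cells, 4.23 times as high in Tbx21-/- cells.

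Chains that pair in the protein did not have equal transcript levels. The FPKM of H2-Ab1 was 5.45 times that of H2-Aa in Tbx21-/- cells and 19.8 times in wild type cells. The wild type ratio rests on the 0.697 FPKM of H2-Aa. The FPKM of H2-DMa was 7.62 times that of H2-DMb1 in Tbx21-/- cells and 5.49 times in wild type cells. Both genes have uncertain values, as stated above. The ratio of H2-DMa to H2-Oa, which act against each other in peptide loading, was 2.44 in Tbx21-/- cells and 2.34 in wild type cells.

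Within the 211 genes listed as higher in Tbx21-/- cells, the 7 genes were spread from near the top to the lower part. By log2 ratio H2-Aa ranked 8 and H2-Eb1 ranked 11, followed by H2-Ab1 at 41, Cd74 at 53, H2-DMa at 75, H2-Oa at 81 and H2-DMb1 at 145. By the authors' deposited table, the median log2 ratio was 2.09 over the 7 genes and 1.44 over the 211. The median FPKM in Tbx21-/- cells was 17.0 over the 7 genes and 15.3 over the 211, and that in wild type cells was 5.51 over the 7 and 4.93 over the 211. A level under 1 FPKM in wild type cells was found for 2 of the 7 genes and for 16 of the 211. By level in Tbx21-/- cells, Cd74 ranked 33 and H2-Ab1 ranked 37 of the 211.

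**Figure D3:**
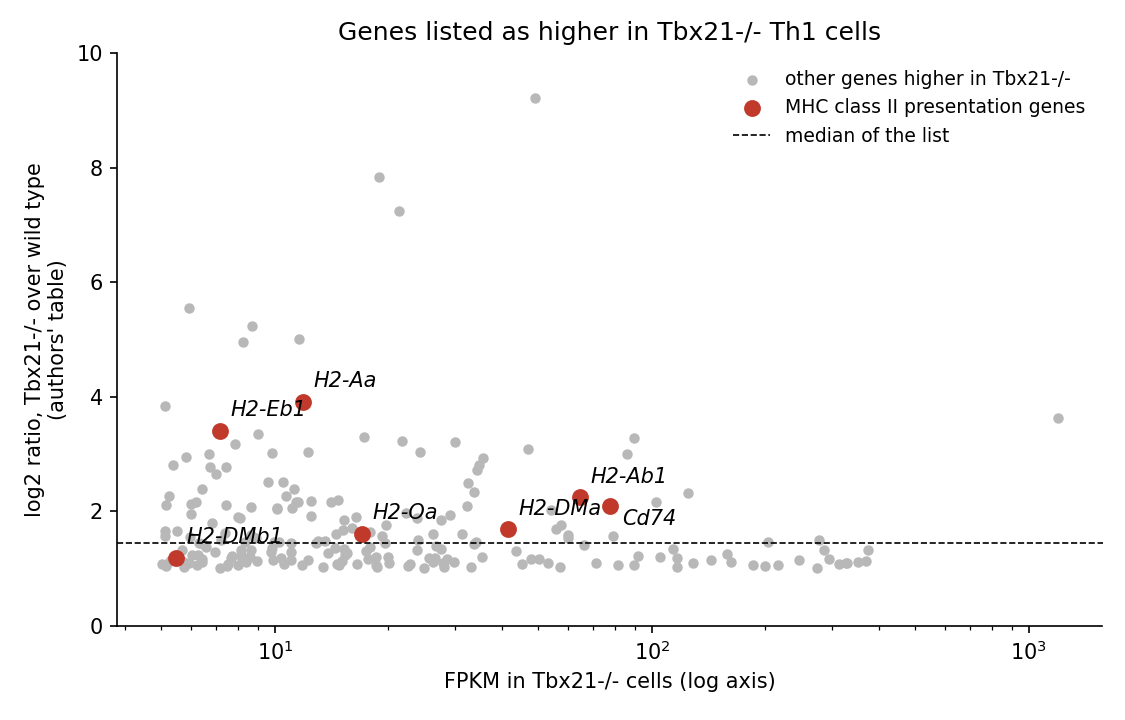
Each point is a gene listed as higher in Tbx21-/- cells, with its FPKM in those cells (log axis) and its log2 ratio (Tbx21-/- to wild type) from the authors' deposited table; the dashed line is the list's median of 1.44. H2-DMb1 lies under that line at 1.19 and the other 6 class II genes (red) lie above it.

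Other genes of the class II pathway were mostly on neither list. Of 13 further class II chains and processing genes, 2 were listed as higher in Tbx21-/- cells, 1 as lower and 10 on neither. Over all coding genes, 0.932% were listed as higher and 0.963% as lower, so the listed part of the 13 was above those shares. This was not tested. Ctss, cathepsin S, the protease that cuts the last part of the invariant chain in B cells and dendritic cells, had 57.0 FPKM in Tbx21-/- cells and 27.3 FPKM in wild type cells. Lgmn, an asparagine-specific endosomal protease, had 17.5 FPKM in Tbx21-/- cells and 7.10 FPKM in wild type cells. Ctsd, the aspartic protease cathepsin D, went the other way, with 180 FPKM in Tbx21-/- cells and 493 FPKM in wild type cells. The remaining chains H2-DMb2, H2-Ob, H2-Eb2 and H2-Ea were on neither list.

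None of 8 regulators of class II transcription, Ciita, Rfx5, Rfxap, Rfxank, Nfya, Nfyb, Nfyc and Creb1, was on either list, so they have no FPKM value here. Over all coding genes 1.89% were on one of the lists, so a count of 0 of 8 is near that share. Every gene listed as higher had at least 5.02 FPKM in Tbx21-/- cells. A regulator that changed by less than 2-fold, or that was higher but under this level, could therefore be missing from the lists. In the interferon-gamma pathway, which induces class II genes through Ciita in many cells, 1 of 10 genes was listed as higher and 2 as lower. The shares over all coding genes were 0.932% and 0.963%. Ifng, the cytokine itself, had 19.5 FPKM in Tbx21-/- cells and 1011 FPKM in wild type cells. Ifngr2, the signalling chain of its receptor, had 9.57 FPKM in Tbx21-/- cells and 1.66 FPKM in wild type cells. Irf8, a transcription factor of the interferon response and of myeloid and B cells, had 39.2 FPKM in Tbx21-/- cells and 95.5 FPKM in wild type cells.

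Of 15 class I presentation genes, among them B2m, Tap1, Tap2, Psmb8, Psmb9 and Nlrc5, 0 were on either list, and over all coding genes 1.89% were on one, so a count of 0 is near that share. From H2-Oa to H2-Eb2 the RefSeq annotation has 14 protein-coding genes in a row on chromosome 17, of which 6 are members and were chosen for being listed as higher in Tbx21-/- cells. The other 8 were on neither list and comprise Brd2, the class II genes H2-DMb2, H2-Ob and H2-Eb2, and the class I genes Psmb9, Tap1, Psmb8 and Tap2. Cd74 lies on chromosome 18. Of 9 costimulation genes of presenting cells, Cd80, Cd86 and Cd40 included, 0 were listed as higher and 1 as lower. That gene, Tnfsf4, which encodes OX40 ligand, had 1.45 FPKM in Tbx21-/- cells and 16.5 FPKM in wild type cells.

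Markers of myeloid and dendritic cells, B cells and plasma cells were mostly on neither list. Over all coding genes, 1.89% were on one of the 2 lists. Of 30 myeloid and dendritic cell markers, Cebpb was the single listed gene, with 28.6 FPKM in Tbx21-/- cells and 12.8 FPKM in wild type cells. Of 16 B cell markers, Cd79a, a chain of the B cell receptor, had 5.36 FPKM in Tbx21-/- cells and 0.722 FPKM in wild type cells. Blk, a kinase of B cells and some T cells, had 4.82 FPKM in Tbx21-/- cells and 12.8 FPKM in wild type cells. The other 14 B cell markers, Ms4a1 and Pax5 among them, were on neither list. Of 8 plasma cell markers, 3 were listed as higher and 5 were on neither list. Igj, the antibody joining chain, had 48.9 FPKM in Tbx21-/- cells and 0.0506 FPKM in wild type cells. Mzb1, an endoplasmic reticulum protein of antibody-secreting cells listed as 2010001M09Rik, had 11.6 FPKM in Tbx21-/- cells and 0.313 FPKM in wild type cells. Pou2af1, a B cell coactivator counted here as a plasma cell marker, had 8.69 FPKM in Tbx21-/- cells and 0.194 FPKM in wild type cells.

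The summed FPKM of the listed markers was 69.2 in Tbx21-/- cells and 0.558 in wild type cells for plasma cells. For B cells it was 10.2 in Tbx21-/- cells and 13.5 in wild type cells, a sum of only Cd79a and Blk, which differed in direction. It was 28.6 in Tbx21-/- cells and 12.8 in wild type cells for myeloid and dendritic cells. Markers on neither list have no value here, so whether any was at 0 is not known. The part of such cells in the higher class II values was not tested.

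**Figure D4:**
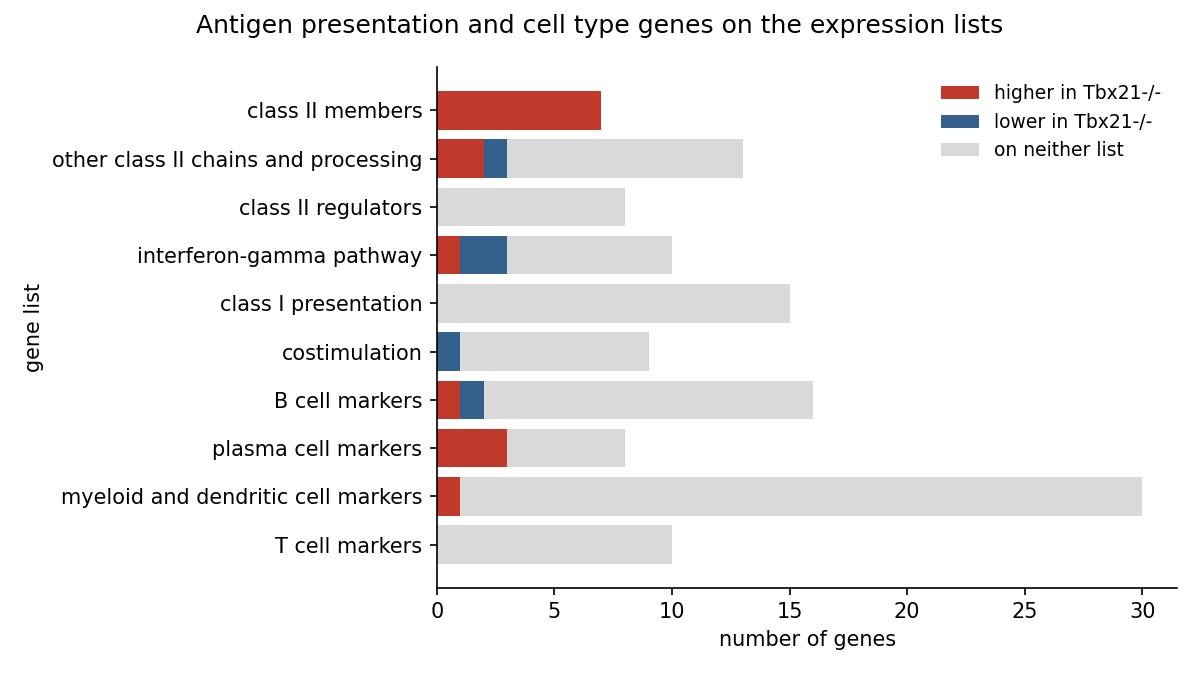
Number of genes per gene list (horizontal axis) listed as higher in Tbx21-/- cells (red), as lower (blue) or on neither list (grey). The 7 class II genes were chosen with these lists known. Among the others, 3 of 8 plasma cell markers and 2 of 13 class II chains and processing genes are red. None of the 15 class I genes is on either list. Over all coding genes, 0.932% are listed as higher and 0.963% as lower.

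None of the 7 genes was the closest gene of a T-bet peak, against 10.4% of 21900 protein-coding genes. H3K4me1, a histone mark typical of enhancers, had a listed region at 3 of the 7 genes, H2-Oa, H2-DMa and H2-Aa, against 17.2% of coding genes. H3K27me3, a mark of genes silenced by Polycomb complexes, had a listed region at 1 of the 7, H2-Ab1, against 11.8% of coding genes. The remaining 3 genes, H2-Eb1, H2-DMb1 and Cd74, had none in any list. The histone lists name both genotypes in their titles and give 1 tag count per region. Which library or libraries it counts, and which genotype had the stronger mark, was not given in the sources used here. A region therefore gives no direction of change. The histone lists hold selected regions, so the mark can also be present at a gene that has none listed.

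The H3K4me1 regions differed in size. In mm9 that of H2-DMa lay at chr17:34265576-34267991 and was 2416 bp long, with 131 tags and a fold enrichment of 4.68, a value the authors took from their peak caller. That of H2-Oa lay at chr17:34205849-34207500, with 71 tags and a fold enrichment of 5.24 over 1652 bp. Both were longer and held more tags than most of the 7669 H3K4me1 regions, which had medians of 688 bp and 27 tags. The region of H2-Aa, at chr17:34428622-34428954, was small, with 16 tags over 333 bp and a fold enrichment of 6.41. All of these fold enrichments lay under the list's median of 6.91.

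The H3K27me3 region of H2-Ab1 lay at chr17:34396128-34397018, with 34 tags over 891 bp and a fold enrichment of 4.82. It was longer and held more tags than the median of its list, 509 bp and 18 tags, while its fold enrichment was under the median of 7.22. It lay 31.6 kb from the H3K4me1 region of H2-Aa, and no region of a member overlapped a region of another list. The positions of these regions relative to exons, introns and starts were not analysed here.

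The 4 regions of members on chromosome 17 spanned 223 kb, and the only T-bet peak within that span was assigned to Tap2, a peptide transporter subunit of the class I pathway. It lay at chr17:34347463-34347949, with 17 tags, a fold enrichment of 2.36 and a false discovery rate of 0.31%. The distance from this peak was 48.2 kb to the H3K27me3 region of H2-Ab1, 79.5 kb to the H3K4me1 region of H2-DMa and 80.7 kb to that of H2-Aa. The T-bet peak nearest to the H2-Oa region was that of H2-Ke6, 41.3 kb away, with 7 tags. The median T-bet peak had 9 tags and a fold enrichment of 2.625, so the Tap2 peak was above the median in tags and below it in enrichment.

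**Figure D5:**
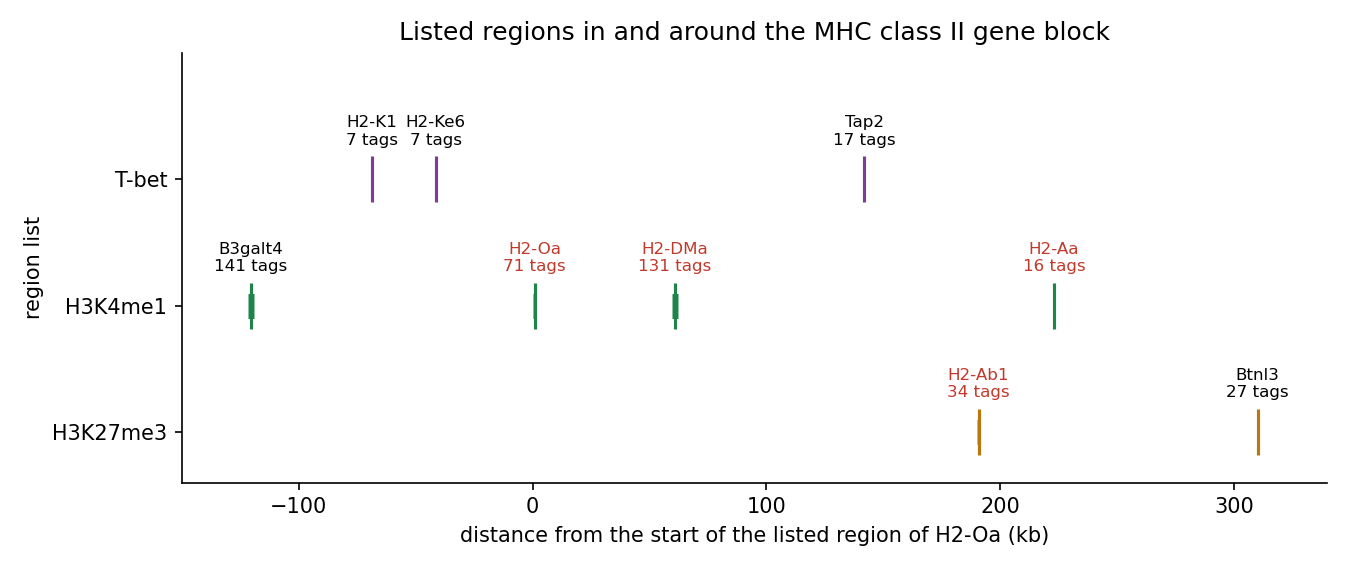
Listed regions of T-bet, H3K4me1 and H3K27me3 (rows) by distance in kb from the start of the H2-Oa region, each with its closest gene and tag count; names in red are class II genes, and ticks mark region centres. A T-bet peak lies between the members' regions at Tap2 (17 tags), 48.2 kb from the H2-Ab1 region.

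Of the 13 further class II chains and processing genes, 3 had a T-bet peak, against 10.4% of coding genes. Ctss, Lgmn and Ctsd each had 1 peak, and the processing genes Ctsb, Ctsl, Ctsh and Ifi30 had none. That of Ctss lay at chr3:95327531-95327945, with 16 tags and a fold enrichment of 4.94, and an H3K27me3 region of Ctss lay 3.86 kb from it. That of Lgmn lay at chr12:103609052-103609536, with 11 tags and a fold enrichment of 3.57, and its H3K4me1 region was 68.2 kb away. That of Ctsd lay at chr7:149582580-149582828, with 6 tags and a fold enrichment of 2.67, and its H3K4me1 region was 13.0 kb away. Ctsb, without a T-bet peak, had 3 H3K4me1 regions and 1 H3K27me3 region. Ciita, the coactivator of class II genes, had no T-bet peak and 1 H3K4me1 region, at chr16:10466516-10466969, with 12 tags and a fold enrichment of 7.41. Nlrc5, the corresponding coactivator of class I genes, had 1 T-bet peak, with 10 tags and a fold enrichment of 4.20.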

How the data were processed

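RNA-seq and ChIP-seq of 9 samples in 7 groups were used as 5 lists made by the authors; groups came from the sample titles. Per the submitters' processing notes, which give no roles, the tools were TopHat 1.3.3, MACS 1.4.1, Bowtie 0.12.7, DESeq and CASAVA 1.7, and the build was mm9. FPKM values per genotype were deposited by the authors with the duplicates combined, and the log2 ratio of Tbx21-/- over wild type is the authors' own. Tag counts and fold enrichment (a ratio to the caller's control) of each region, and the false discovery rate in percent of T-bet peaks, were deposited by the authors. The T-bet library was set against Th1 input, per the labels; a control for the histone lists was not given in the sources used here.

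Names were matched by symbol, then by unambiguous synonym, to RefSeq (GRCm38.p6, used for names, gene order and promoters). This placed 204 genes of the list higher in Tbx21-/- cells among 21900 coding genes, which are a background and not the genes the authors tested. Gene names that had become dates (10 entries for T-bet, 12 for H3K4me1, 6 for H3K27me3) were left out, so Marchf1 and Marchf8 could not be matched there. The members and gene lists were chosen with earlier results of these data known, so no test was made over them. Named genes are all members and every gene of the fixed lists that was on an expression list; for regions, all rows of members, with those of processing genes and coactivators. Regions overlapped when they shared 1 bp. The motif search was tested on simulated sequences. Python 3.11.15, pandas 2.3.3, numpy 2.4.6 and matplotlib 3.10.9 were used. Results for some items are not reported here.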

Additional observations from a re-analysis of the deposited data

How the results depend on the processing

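The direction of the 7 genes is fixed by their choice and could not turn under another way to compute the change, so only its size is given. The median log2 change was 2.16 from the FPKM ratio, 2.15 with a pseudocount of 0.1 and 2.10 with a pseudocount of 1, against 2.09 in the authors' deposited table. A pseudocount of 1 lowered the change of H2-Aa to 2.92, that of H2-Eb1 to 2.34 and that of H2-DMb1 to 0.95, under 2-fold; the pseudocount shrinks low values by construction. With at least 10 FPKM in the higher genotype, 5 of 7 genes were left, without H2-Eb1 and H2-DMb1. With at least 20 tags, 2 of the 3 genes with an H3K4me1 region were left, without H2-Aa. For the count of 0 T-bet peaks, the stricter thresholds could only remove peaks, and the search within 20 kb, which found 0, covers only the 4 members with a region. Of 14 members and pathway genes on the expression lists, 11 were also named in a region list. The same held for 271 of all 415 coding genes on the expression lists, so nothing is read from that count. No paired analysis was possible because each genotype has 1 combined FPKM value, and for the same reason no replicate could be left out. Depth is unknown.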

Other observations

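The promoter boxes were also counted over the genes listed as higher in Tbx21-/- cells. Of 166 such genes with a promoter sequence, 51 had a Y box, or 30.7%, against 18.2% of 26994 genes with a promoter. The 51 include 5 of the class II genes described above. The list also holds many closely related histone genes, such as Hist1h2ad and Hist1h2ah, and their part of the 51 is not given here. An X box was found in 3 of the 166, or 1.81%, against 0.359% of all genes, and 2 of these 3 were H2-Eb1 and H2-DMb1. Those 2 are members chosen for being on this list, so nothing is read from that share. Expressed and silent genes were not separated in the larger set, and no test was made.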
